A study of Mus musculus with 6 samples.

Results

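The genes described here are 41 proliferation and DNA replication genes of regulatory T (Treg) cells. They were chosen by symbol, as commonly used markers of cycling cells, from the 24421 genes of the RNA-seq count matrix. The rule itself uses no measured value, although the genes were chosen with earlier results of these data known. RNA from sorted splenic Treg cells was sequenced from mice with and without miR-142 in those cells, and the comparison asked which of these genes differed in level between the genotypes.

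The WT group was 3 Foxp3Cre mice and the KO group was 3 Foxp3Cre miR-142fl/fl mice, all female, on a C57BL/6 background and between 8 and 11 weeks old. Both groups carried the Foxp3Cre-YFP allele, in which the endogenous Foxp3 promoter drives Cre fused to yellow fluorescent protein, so the WT mice shared the reporter and Cre but had no floxed miR-142 allele according to their genotype. Cells were sorted as CD4+YFP+ from the spleen without further treatment, with 1 library per mouse. Cre acts where Foxp3 is expressed, and the other cells of the KO mice kept miR-142.

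A dividing cell copies its DNA in S phase and separates the copies in M phase. In late M and G1 phase the licensing factors Cdc6 and Cdt1 load the MCM ring onto origins of replication, cyclin E with its kinase starts S phase, and the E2F factors switch on the genes of licensing, nucleotide supply and fork movement. Cyclin A and cyclin B with Cdk1, and the Polo and Aurora kinases, then drive spindle assembly and division, and the anaphase-promoting complex removes the mitotic proteins again. Treg cells in the spleen include resting cells and a cycling effector fraction. Messages of the mitotic genes are low in resting lymphocytes.

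The promoters of many cell cycle genes carry short motifs, and 6 of them are shown as examples because they hold 1 or more of these motifs in the bases just before the start site. Top2a, Ccnb2, Plk1 and Mki67 stand for the mitotic and marker genes and Mcm6 and Mcm2 for the licensing genes, and no E2F match lies in the stretch of Mcm2. The sequences are 120 bases that end at the start site, from RefSeq in GRCm38.p6, with matched motifs in capitals. The motifs searched were the E2F sites TTTCCCGC, TTTGGCGC, TTTCGCGC and TTTGCCGC, the cell cycle homology region (CHR) written as TTTGAA or TTTAAA, and the CCAAT box written as CCAAT, each on both strands. TTTAAA is its own reverse complement, and adjacent E2F matches can overlap.
Top2a, chr11:99024190-99024309, minus strand: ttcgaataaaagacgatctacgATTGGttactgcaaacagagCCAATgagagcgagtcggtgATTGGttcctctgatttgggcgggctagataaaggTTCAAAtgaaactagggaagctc
Ccnb2, chr9:70421555-70421674, minus strand: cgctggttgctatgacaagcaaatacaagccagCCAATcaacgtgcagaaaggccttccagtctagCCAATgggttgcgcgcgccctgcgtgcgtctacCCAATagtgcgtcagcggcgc
Plk1, chr7:122159315-122159434, plus strand: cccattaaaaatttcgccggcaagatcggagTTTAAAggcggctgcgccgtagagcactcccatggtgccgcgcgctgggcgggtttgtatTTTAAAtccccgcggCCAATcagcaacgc
Mki67, chr7:135716380-135716499, minus strand: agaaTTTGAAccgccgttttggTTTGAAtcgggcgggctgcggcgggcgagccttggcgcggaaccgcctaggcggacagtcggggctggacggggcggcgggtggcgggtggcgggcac
Mcm6, chr1:128359706-128359825, minus strand: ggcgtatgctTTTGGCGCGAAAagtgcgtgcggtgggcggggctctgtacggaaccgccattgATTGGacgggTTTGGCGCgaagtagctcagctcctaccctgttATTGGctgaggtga
Mcm2, chr6:88898781-88898900, minus strand: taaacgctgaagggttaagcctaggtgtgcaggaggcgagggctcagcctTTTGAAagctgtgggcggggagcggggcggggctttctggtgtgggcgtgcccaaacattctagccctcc

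RefSeq promoter windows, from 250 bases before to 50 bases after the start, were matched for 33 of the 41 members (35 windows). A CHR match was present in 62.9% of the 35 windows and in 27.6% of all 32851 promoter windows. In the 18 windows of the mitotic, checkpoint and spindle genes the share was 83.3%, and in the 15 windows of the licensing, nucleotide and G1/S genes it was 33.3%. E2F matches showed the other order, with 5.56% of the windows of the mitotic genes, 40.0% of those of the replication genes and 2.26% of all windows. A CCAAT box was found in 74.3% of the member windows and in 37.4% of all windows. These are letter matches and not measured binding. The 32851 windows belong to 27025 genes, whether or not they were expressed in these cells, while all 41 members were.

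miR-142 acts through its seed, bases 2 to 8 of the mature strand, which pairs with sites in 3′ UTRs. The mature strands, with the seed in capitals, lie in the Mir142 hairpin on the plus strand of chromosome 11 in GRCm38.
miR-142a-3p, chr11:87756903-87756925: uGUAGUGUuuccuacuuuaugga
miR-142a-5p, chr11:87756867-87756887: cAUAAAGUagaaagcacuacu
At least 1 site of 7 bases, counting the 3p seed, a 3p seed shifted by 1 base and the 5p seed, was present in the longest annotated 3′ UTR of 15 of the 41 members (36.6%) and of 4034 of 10780 tested genes with a 3′ UTR (37.4%). The median 3′ UTR was 788 bases in the members and 1185 bases in the tested genes. Sites of 8 bases were present in 2 members (4.88%), compared with 11.4% of the tested genes. These sites matched the shifted 3p seed and lay in Tyms and Gins2, shown with 10 bases on each side.
Tyms, chr5:30059174-30059181, minus strand: aggttatgagAACACTAAagttccagga
Gins2, chr8:120579479-120579486, minus strand: cagcagtacaAACACTAAaagcaaggtt
Of the members named as changed in the next paragraphs, Prc1, Ccne1 and Mcm4 had no site of either strand in the 3′ UTR, Top2a had none, and Mcm2 had 1 site of 7 bases for the 5p seed.

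Total counts ranged from 13883069 to 24042994 per library, so that 3 counts corresponded to between 0.123 and 0.227 CPM. CPM are counts scaled to a common library size, here with sizes adjusted by the trimmed mean of M values (TMM). Reads at the Mir142b locus, the antisense hairpin annotated at miR-142, lay at 9.05, 4.14 and 5.81 CPM in WT and at 0.389, 0.379 and 0.342 CPM in KO, while Mir142 itself had 0 counts in all 6 libraries. Foxp3 lay at 536, 595 and 566 CPM in WT and at 642, 749 and 677 CPM in KO. KO replicate 1 stood apart from the other libraries, with correlations of log CPM of 0.954 and 0.960 to the other KO libraries, which correlated at 0.982 with each other. Its 11 matched neutrophil markers summed to 1014 CPM, against 9.39 and 13.1 CPM in the other KO libraries and 4.06 to 4.93 CPM in WT, and all 11 were highest there. Its 13 monocyte and macrophage markers summed to 3058 CPM, against 164 and 83.9 CPM in KO and 49.9 to 57.8 CPM in WT, and its 9 B cell markers summed to 320 CPM, against 9.39 and 13.1 CPM in KO and 30.7 to 41.8 CPM in WT. Other lists were high in all KO libraries, with 33.1, 8.71 and 50.1 CPM for granulocyte progenitors against at most 1.36 CPM in WT, and 124, 101 and 115 CPM for 14 matched erythroid genes against 30.9 to 34.4 CPM in WT, of which 6 globins had 0 counts in all libraries. Markers of plasmablasts and germinal centre B cells summed to 309, 185 and 205 CPM in KO against 123 to 145 CPM in WT. Those of CD8 T and NK cells summed to 95.7, 56.9 and 46.0 CPM in KO against 20.3 to 24.5 CPM in WT. The CD8 T and NK markers did not move together. Of the 9 markers 3 were expressed enough to be tested, and 1 was called higher in KO and 1 lower. The defining markers Mmp8 and Cxcr2 of neutrophils were at 0 in the other 5 libraries. Values without KO replicate 1 are therefore given beside those of all 6 libraries. In bulk RNA, more cycling cells in a sample and more message per cycling cell cannot be told apart.

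**Figure D1:**
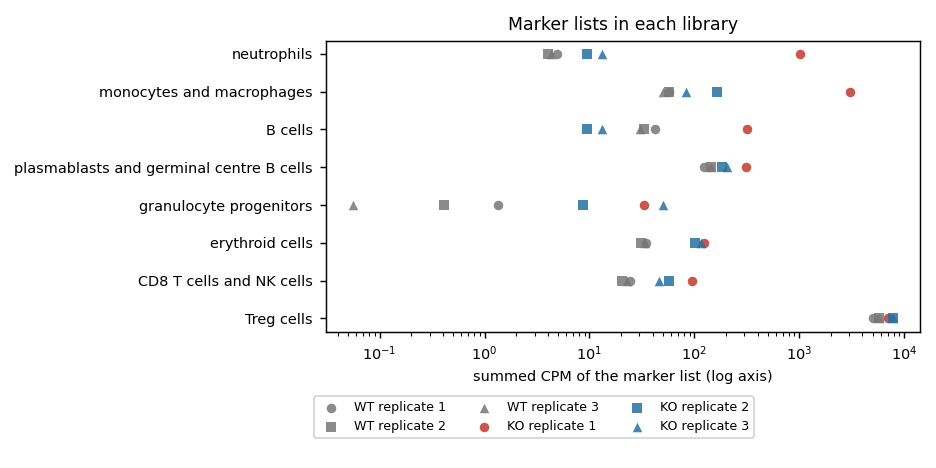
Summed CPM of 8 marker lists (log axis) in each of the 6 libraries, one point per library. The KO replicate 1 point lies at 1014 CPM for neutrophils and 3058 CPM for monocytes and macrophages, to the right of the other 5 libraries. The Treg list spans 5047 to 5734 CPM in WT and 6959 to 7891 CPM in KO.

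In the main test, which weighs a difference between the genotypes against the spread of the mice, few of the 41 genes were called. Ccne1, which encodes cyclin E1, and Prc1, which bundles the microtubules of the central spindle, were called higher in KO Treg cells, Prc1 just inside the threshold. Mcm4, a subunit of the replicative helicase, was called lower, while the other 38 genes were not called. All 41 passed the expression filter of more than 1 CPM in at least 3 libraries, Ccnb1 only through the KO libraries. In edgeR's quasi-likelihood F (QLF) test at an FDR of 0.05, 2 members (4.88%) were higher and 1 (2.44%) was lower, against 11.6% of the 11658 tested genes called higher and 7.27% called lower. At an unadjusted p below 0.05 there were 10 higher and 2 lower members, against 2299 and 1761 of the 11658 tested genes. DESeq2 called 7 members higher and 1 lower, against 1665 and 1198 of all tested genes. It added Top2a, Ccna2, Ccnb1, Ube2c and Tpx2 at adjusted p from 0.00183 to 0.0489. The likelihood ratio and exact tests of edgeR each called 5 members higher and 1 lower. Over all tested genes these 2 tests called 1444 and 1407 higher, and 823 and 797 lower. Ccnb1 is among the higher members in each of these counts, although its passing the filter required it to be higher in KO. Without WT replicate 1, 2 or 3 no member was called higher, when 483 to 666 of all tested genes were. Without KO replicate 2 there were 4 called higher and without KO replicate 3 there was 1, when 1403 and 874 of all tested genes were. None was called lower without WT replicate 2, WT replicate 3 or KO replicate 3, when 208, 235 and 637 of all tested genes were.

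The fold changes of the members leaned upward with all 6 libraries and not without KO replicate 1. The log2 fold change (KO over WT) was above 0 for 31 of the 41 genes, with a median of 0.72, while the median of all tested genes was 0.016. Without KO replicate 1 the median was 0.05, 18 of the 40 genes tested were below 0, and 3 were called higher (9.69% of the 11429 genes then tested) and 2 lower (7.59%). KO replicate 1 was the library with the highest value for 35 of the 41 members, against 23.4% of all tested genes. In 22 members it exceeded the highest of the other 5 libraries by more than 2-fold, a pattern found in 3.84% of all tested genes. The summed level of the 41 genes was 1017, 1094 and 982 CPM in WT and 1790, 908 and 1007 CPM in KO, so the KO sum was above every WT library in replicate 1 only. The part of the other cell types in KO replicate 1 in these values was not tested.

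**Figure D2:**
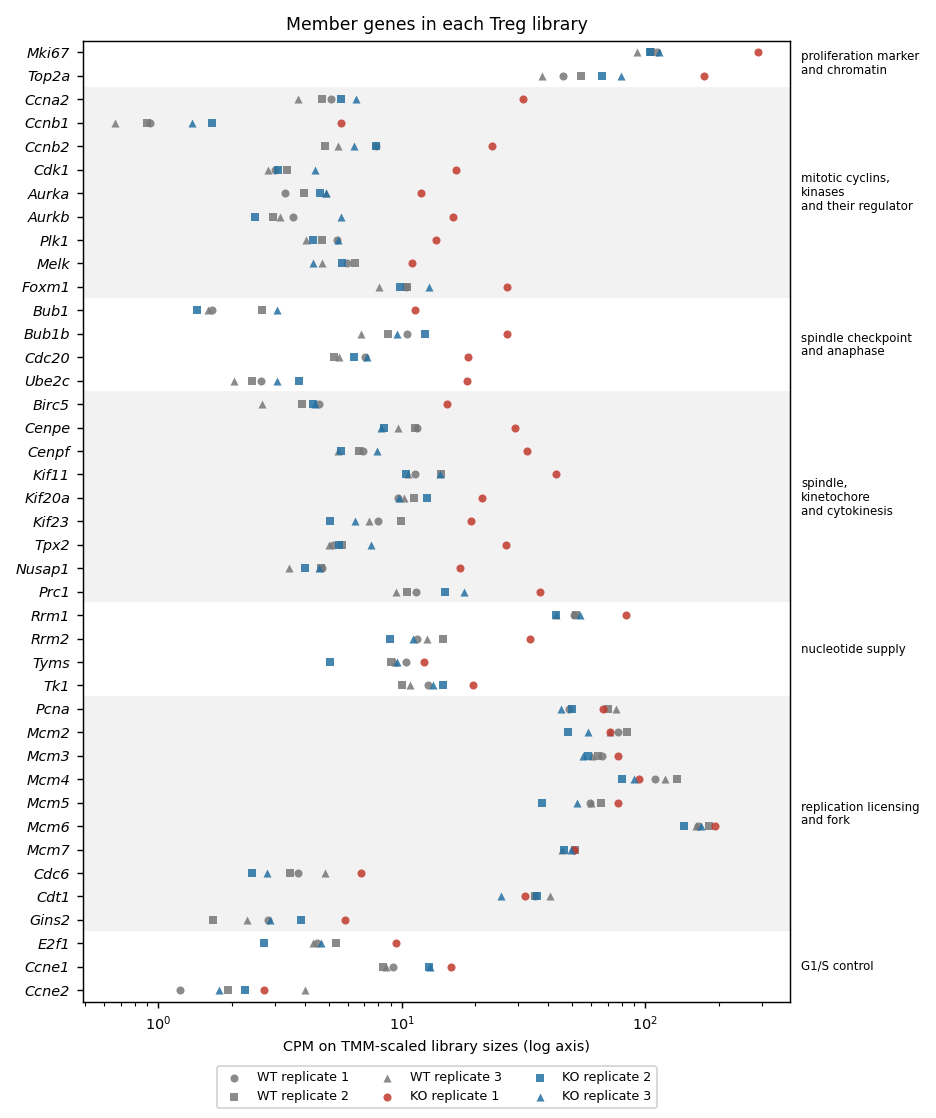
CPM of each of the 41 genes (log axis) in the 3 WT libraries (grey), KO replicate 1 (red) and KO replicates 2 and 3 (blue), grouped by role. The red points lie to the right for the mitotic, checkpoint and spindle genes, and within or near the range of the other libraries for the Mcm genes, Pcna and Cdt1.

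The KO libraries did not overlap the WT libraries for 10 genes. Every KO library was above every WT library for 8 members, Top2a, Ccna2, Ccnb1, Ube2c, Prc1, Tk1, Gins2 and Ccne1, and this order was found for 22.2% of all tested genes. For Ccnb1 this order was needed for the gene to pass the filter. Every KO library was below every WT library for 2 members, Mcm2 and Mcm4, against 18.8% of all tested genes. With 3 libraries per group, an exact permutation test of a single gene cannot give a two-sided p below 0.1.

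Mki67 encodes Ki-67, the nuclear protein by which cycling cells are usually stained. It lay at 111, 105 and 92.7 CPM in WT and at 290, 105 and 114 CPM in KO. The replicate 1 mouse was 2.55 times the highest other library, and the other KO mice lay at the level of WT. The log2 fold change was 0.72 (SE 0.37, edgeR QLF adjusted p = 0.217), and without KO replicate 1 it was 0.07 (SE 0.11, adjusted p = 0.709). Top2a, the topoisomerase that untangles replicated chromosomes, lay at 45.8, 54.4 and 37.6 CPM in WT and at 174, 66.6 and 79.1 CPM in KO. All 3 KO mice were above all WT mice. Its log2 fold change of 1.22 (SE 0.35) missed the threshold in all 6 libraries (edgeR QLF adjusted p = 0.0542), and the value of 0.65 (SE 0.17) without KO replicate 1 passed it (adjusted p = 0.0323). The mean of KO replicates 2 and 3 was 1.06 times the mean of WT for Mki67 and 1.59 times for Top2a.

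The mitotic cyclins, their kinases and the transcription factor Foxm1 were high in KO replicate 1, and most were nearer to WT in the other KO mice. The mean of KO replicates 2 and 3 was 1.83 times that of WT for Ccnb1 and 1.34 times for Ccna2. For the others it ran from 0.88 times for Melk to 1.26 times for Aurkb. The summed level of the group was 45.6, 42.4 and 37.5 CPM in WT and 157, 45.1 and 51.7 CPM in KO. None of the 9 was called in all 6 libraries by the QLF test (2 at an unadjusted p below 0.05), while DESeq2 called Ccna2 and Ccnb1. In 8 of the 9 genes, all except Melk, KO replicate 1 was more than 2-fold above the highest other library.

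Ccnb1, which encodes cyclin B1, the partner of Cdk1 at entry into mitosis, was the lowest of all members per length in WT. It lay at 0.924, 0.902 and 0.664 CPM in WT, from 12 to 22 counts, and at 5.61, 1.67 and 1.37 CPM in KO. The KO libraries were all above WT, and without this order the gene would not have passed the filter. Its log2 fold change of 1.80 (SE 0.58, edgeR QLF adjusted p = 0.0689) is therefore given as a description. Without KO replicate 1 the gene did not pass the filter, as no WT library exceeded 1 CPM. Cdk1, the kinase that drives mitosis, lay at 3.02, 3.36 and 2.82 CPM in WT and at 16.7, 3.10 and 4.38 CPM in KO. KO replicate 2 lay within the WT range. Over all 6 libraries the log2 fold change was 1.40 (SE 0.60, adjusted p = 0.147), and 0.27 (SE 0.26, adjusted p = 0.517) without KO replicate 1.

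Ccna2 encodes cyclin A2, which acts in S phase and at the start of mitosis. It lay at 5.11, 4.71 and 3.76 CPM in WT and at 31.4, 5.60 and 6.501 CPM in KO, with all KO mice above WT and replicate 1 at 4.83 times the next library, and 12.5% of its exon length lies under Exosc9 on the other strand. Its log2 fold change of 1.69 (SE 0.64, adjusted p = 0.114) became 0.40 (SE 0.23, adjusted p = 0.266) without that library. Foxm1, which switches on many mitotic genes, lay at 10.4, 10.5 and 8.02 CPM in WT and at 26.9, 9.84 and 12.9 CPM in KO. KO replicate 2 lay inside the WT range, and the log2 fold change was 0.78 (SE 0.36, adjusted p = 0.176), and 0.22 without KO replicate 1. The remaining members of the group were Ccnb2, Aurka, Aurkb, Plk1 and Melk, a second B-type cyclin and 4 kinases, and their log2 fold changes ran from 0.30 for Melk to 1.34 for Aurkb. Without KO replicate 1 they ran from -0.21 for Melk to 0.33 for Aurkb. Aurkb, the kinase of the chromosomal passenger complex, was called when KO replicate 2 was left out (adjusted p = 0.0352).

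The spindle checkpoint and anaphase group held Bub1 and Bub1b, which hold back anaphase until chromosomes are attached, and Cdc20 and Ube2c, which activate and serve the anaphase-promoting complex. Their summed level was 21.9, 19.1 and 16.0 CPM in WT and 75.5, 24.1 and 22.9 CPM in KO. All 4 were more than 2-fold higher in KO replicate 1 than in any other library. Ube2c lay at 2.65, 2.42 and 2.05 CPM in WT and at 18.5, 3.79 and 3.08 CPM in KO. All KO mice were above WT, and this was the largest log2 fold change of the 41 members, at 1.84 (SE 0.67, adjusted p = 0.101). It was 0.51 (SE 0.26, adjusted p = 0.214) without KO replicate 1, and 22.8% of the exon length of Ube2c is shared with Tnnc2 on the other strand. None of the 4 genes was called by the QLF test, with 2 at an unadjusted p below 0.05, and Ube2c was the 1 called by DESeq2.

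Among the 9 spindle, kinetochore and cytokinesis genes, Prc1 was called. It lay at 11.46, 10.45 and 9.46 CPM in WT and at 36.9, 14.99 and 18.0 CPM in KO. All KO mice were above all WT mice, replicate 1 by 2.05-fold over the next library. The log2 fold change was 1.16 (SE 0.33, adjusted p = 0.0498), and 0.64 (SE 0.17, adjusted p = 0.0349) without KO replicate 1. The call was lost on leaving out WT replicate 1 (adjusted p = 0.12), WT replicate 2 (0.155), WT replicate 3 (0.154) or KO replicate 3 (0.062). It was also lost in the QLF test with other scalings, other filters or robust estimation (adjusted p from 0.0514 to 0.0688). Over 11.1% of its exon length Prc1 overlaps Rccd1 on the other strand, and the counting did not use strand.

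The other 8 genes of this group were not called by the QLF test. The group sum was 73.2, 78.3 and 63.8 CPM in WT and 242, 71.1 and 81.0 CPM in KO. Cenpf, a kinetochore protein of G2 and M phase, lay at 6.90, 6.68 and 5.48 CPM in WT and at 32.8, 5.60 and 7.87 CPM in KO. Kif11, the motor that pushes spindle poles apart, lay at 11.3, 14.5 and 10.6 CPM in WT and at 43.1, 10.4 and 14.4 CPM in KO. Both genes were highest in KO replicate 1, at 4.16 and 2.98 times the next library. Cenpf in KO replicate 3 also lay above all WT mice. Without KO replicate 1 their log2 fold changes were 0.07 and 0.01. Tpx2, which activates Aurora A on the spindle, gave 1.32 (SE 0.56, edgeR QLF adjusted p = 0.143) with all libraries and 0.27 without KO replicate 1, and was called by DESeq2 with all libraries (adjusted p = 0.0489). The other genes, Birc5, Cenpe, Kif20a, Kif23 and Nusap1, had log2 fold changes from 0.30 for Kif23 to 1.12 for Birc5 and were not called, and Kif20a shares 29.3% of its exon length with Cdc23 on the other strand. Without KO replicate 1 they ran from -0.56 for Kif23 to 0.22 for Birc5.

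**Figure D3:**
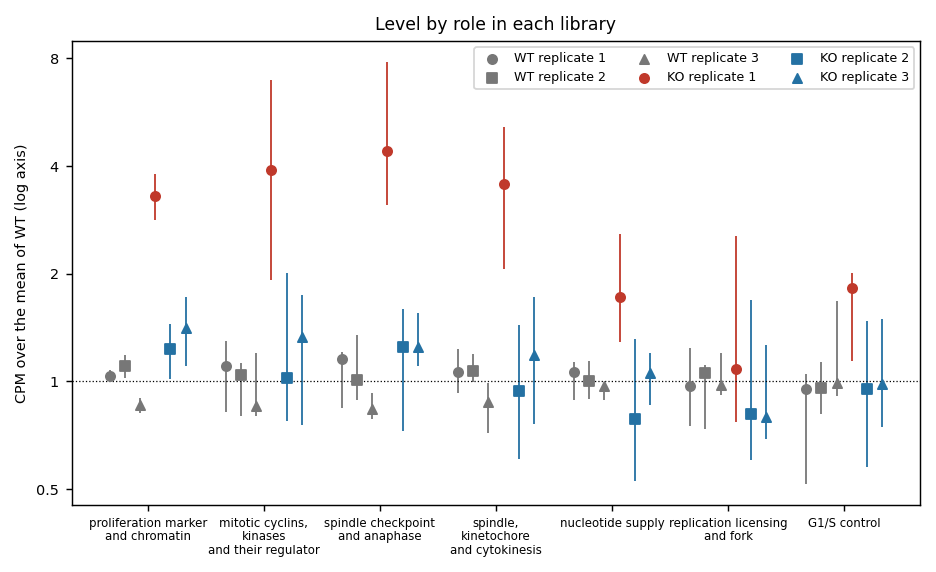
CPM of each library over the mean of WT (log axis), by role, with points at the median over the genes of the role and lines from the lowest to the highest gene. In KO replicate 1 the median was 3.31 to 4.42 for the proliferation marker, mitotic, checkpoint and spindle genes and 1.09 for licensing and fork, while in KO replicates 2 and 3 it lay between 0.79 and 1.41 for every role.

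The genes of nucleotide supply make the DNA precursors. Rrm2, the regulated subunit of ribonucleotide reductase, lay at 11.5, 14.8 and 12.7 CPM in WT and at 33.5, 8.93 and 11.2 CPM in KO. Replicate 1 was 2.26 times the next library, while the other KO mice lay below all WT mice. The fitted log2 fold change was 0.46 (SE 0.47, adjusted p = 0.528), and -0.39 (SE 0.19, adjusted p = 0.198) without KO replicate 1. Tk1, the thymidine kinase of S phase, lay at 12.8, 10.04 and 10.8 CPM in WT and at 19.5, 14.8 and 13.5 CPM in KO. All KO mice were above WT, and the log2 fold change of 0.51 (SE 0.19) was not called (adjusted p = 0.1), nor was that of 0.32 without KO replicate 1 (adjusted p = 0.232). Rrm1, the other reductase subunit, and Tyms, thymidylate synthase, had log2 fold changes of 0.31 and -0.09, and of -0.02 and -0.40 without KO replicate 1. None of the 4 was called by the QLF test (1 at an unadjusted p below 0.05) or by DESeq2.

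The genes of replication licensing and the fork departed from the mitotic genes. Per length, 8 of these 10 genes were the 8 most abundant members in WT, with Mcm6 at 36.3, Mcm4 at 33.9 and Pcna at 27.0 CPM per kilobase of exon in the mean of WT, against 10.2 for Mki67 and 0.197 for Ccnb1. Their summed level was 620, 693 and 642 CPM in WT and 675, 507 and 551 CPM in KO. In none of the 10 genes did KO replicate 1 exceed the highest other library by more than 2-fold, and 2 of the 10 had a log2 fold change above 0. The median log2 fold change of the 10 genes was -0.08, and -0.38 without KO replicate 1, when 9 of the 10 were below 0.

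Mcm4 lay at 110, 135 and 120 CPM in WT and at 93.8, 80.1 and 89.9 CPM in KO. Every KO mouse was below every WT mouse, KO replicate 1 included. With all libraries the log2 fold change was -0.47 (SE 0.11, edgeR QLF adjusted p = 0.0255), and -0.53 (SE 0.12, adjusted p = 0.0209) without KO replicate 1. The call was lost on leaving out WT replicate 2 (adjusted p = 0.105), WT replicate 3 (0.084) or KO replicate 3 (0.0562). Mcm2, another subunit of the same ring, lay at 77.1, 84.0 and 71.8 CPM in WT and at 71.5, 48.1 and 58.0 CPM in KO. The groups did not overlap, although KO replicate 1 lay just under the lowest WT library. The log2 fold change of -0.39 (SE 0.15) was not called (adjusted p = 0.112), and that of -0.57 (SE 0.12) without KO replicate 1 was (adjusted p = 0.0191).

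The other subunits of the ring showed smaller differences. Mcm3, Mcm6 and Mcm7 had log2 fold changes of -0.01, -0.00 and -0.01, with 95% confidence intervals of -0.33 to 0.31, -0.28 to 0.28 and -0.23 to 0.21. The values without KO replicate 1 were -0.19, -0.13 and -0.06. Mcm5 was at -0.14 (SE 0.23, adjusted p = 0.703), and at -0.47 (SE 0.15, adjusted p = 0.0662) without KO replicate 1. Pcna, the sliding clamp of DNA polymerase, lay at 48.7, 70.4 and 75.5 CPM in WT and at 67.2, 50.1 and 45.0 CPM in KO. The groups overlapped, and the log2 fold change was -0.26 (SE 0.21, adjusted p = 0.407), and -0.47 (adjusted p = 0.123) without KO replicate 1. The loading factors Cdt1 and Cdc6 had log2 fold changes of -0.25 and 0.01, and of -0.29 and -0.63 without KO replicate 1, and neither was called. Gins2, a subunit of the active helicase, was the only one of the 10 genes with every KO library above WT, at 2.83, 1.68 and 2.32 CPM in WT and 5.83, 3.86 and 2.87 CPM in KO. Its log2 fold change was 0.89 (SE 0.34, adjusted p = 0.107) and 0.56 without KO replicate 1, and 67.3% of its exon length is shared with Gse1 on the other strand.

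**Figure D4:**
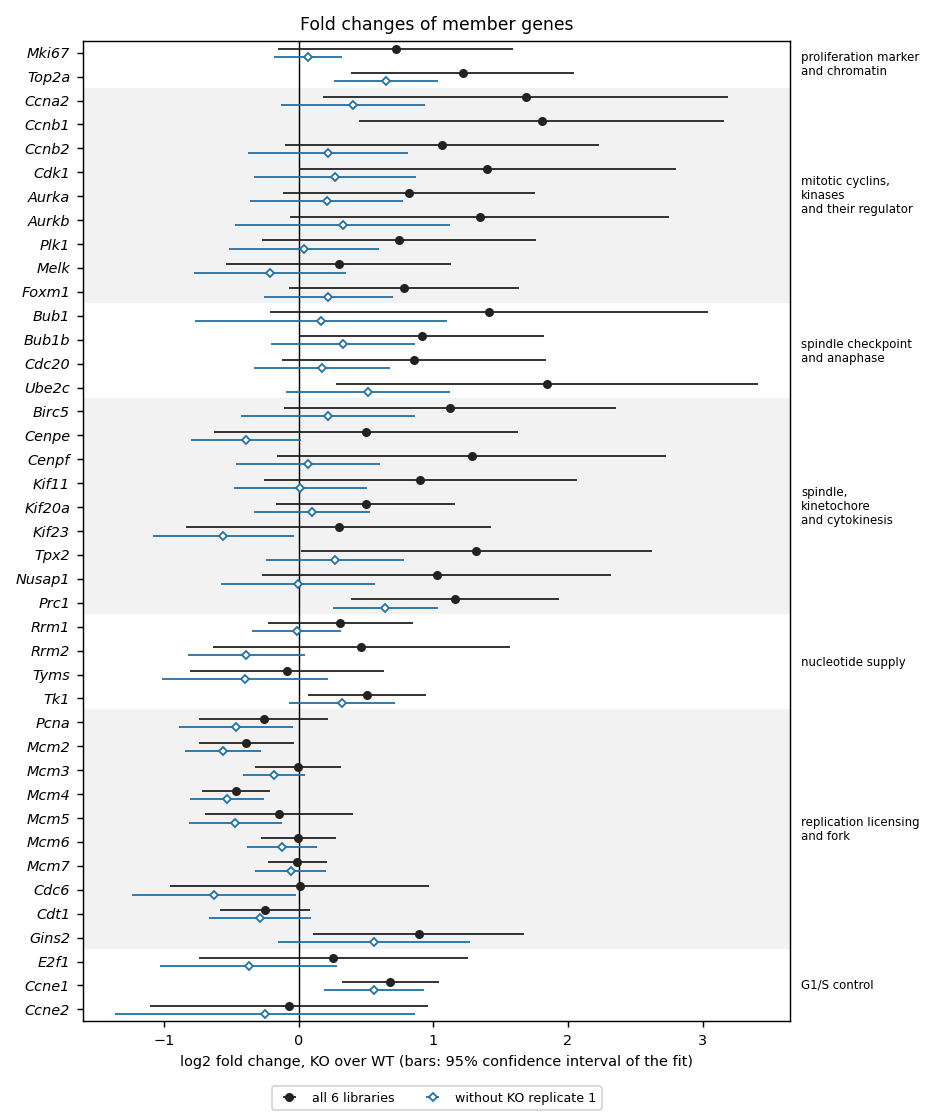
Log2 fold change (KO over WT) of each member with its 95% confidence interval, with all 6 libraries (black) and without KO replicate 1 (blue), grouped by role. Ccnb1 has no blue point because it was not tested without that library, and the blue points run from Cdc6 at -0.63 to Top2a at 0.65.

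At the G1/S boundary, Ccne1, cyclin E1, was called. It lay at 9.18, 8.36 and 8.63 CPM in WT and at 15.9, 12.9 and 13.1 CPM in KO. All KO mice were above all WT mice, and replicate 1 was 1.22 times the next KO library. The log2 fold change was 0.68 (SE 0.15, edgeR QLF adjusted p = 0.0241), and 0.56 (SE 0.16, adjusted p = 0.048) without KO replicate 1. The call was lost on leaving out WT replicate 1 (adjusted p = 0.0695), WT replicate 2 (0.107) or WT replicate 3 (0.0952). Its relative Ccne2, cyclin E2, lay at 1.23, 1.93 and 3.98 CPM in WT and at 2.72, 2.27 and 1.78 CPM in KO, and the groups overlapped, with 17.4% of its exon length under Ints8 on the other strand. Its log2 fold change was -0.07 (SE 0.44, adjusted p = 0.924), and -0.25 (adjusted p = 0.76) without KO replicate 1. E2f1, the activating E2F factor, lay at 4.50, 5.37 and 4.32 CPM in WT and at 9.49, 2.73 and 4.65 CPM in KO. The KO libraries lay on both sides of WT, and the log2 fold change was 0.26 (SE 0.42, adjusted p = 0.706), and -0.37 (SE 0.29, adjusted p = 0.41) without KO replicate 1.

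Other genes of the cell cycle were read from 5 lists that hold no member. Of 42 other DNA replication genes, none was called higher and 1 was called lower by the QLF test, against 11.6% and 7.27% of all tested genes. At an unadjusted p below 0.05 there were 3 and 3, and DESeq2 called 1 and 3. The gene called by the QLF test was Gins3, a partner of Gins2 in the helicase, at 9.61, 11.9 and 10.5 CPM in WT and at 7.11, 4.62 and 6.91 CPM in KO. Its log2 fold change came to -0.78 (SE 0.22, adjusted p = 0.0454), with every KO library below WT, and -0.90 (adjusted p = 0.033) without KO replicate 1. Pold1, the catalytic subunit of DNA polymerase delta, and Orc5, of the origin recognition complex, were next in the list at -0.43 (adjusted p = 0.0656) and -0.37 (adjusted p = 0.0668). On leaving out KO replicate 1, Pold1 was called at -0.53 (adjusted p = 0.0432) and Orc5 was not, at -0.35 (adjusted p = 0.12). Without KO replicate 1, 4 of the 42 were called lower and none higher, against 7.59% and 9.69% of all genes then tested. Leaving out any other library left none called lower. In this list 1 was called higher without KO replicate 2 and 2 without KO replicate 3, when 1403 and 874 of all tested genes were. Of 21 genes of replication stress and S phase repair, none was called by the QLF test, against the same 11.6% and 7.27%, or by DESeq2. At an unadjusted p below 0.05, 1 was higher and 1 lower. The smallest p values belonged to Atr, Fanci and Fanca, at log2 fold changes of -0.29, 0.55 and 0.65, and of -0.26, 0.41 and 0.22 without KO replicate 1. Without KO replicate 3, 1 of the 21 genes was called higher.

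Of 61 other mitotic genes tested, 2 were called higher and 1 lower, against 11.6% and 7.27% of all tested genes, and the median log2 fold change was 0.69, with -0.02 without KO replicate 1. Anln, which encodes the cytokinesis scaffold anillin, lay at 2.09, 1.76 and 2.21 CPM in WT and at 20.6, 11.4 and 7.53 CPM in KO. The lowest KO library was far above the highest WT library, and the log2 fold change was 2.71 (SE 0.37, adjusted p = 0.00497), and 2.21 (adjusted p = 0.00148) without KO replicate 1. Racgap1, a component of the central spindle, lay at 27.0, 25.4 and 25.2 CPM in WT and at 61.7, 41.3 and 43.8 CPM in KO. Every KO library was above WT, and the log2 fold change was 0.92 (SE 0.16, adjusted p = 0.0105), and 0.70 (adjusted p = 0.00599) without KO replicate 1. Pttg1, securin, which restrains separase until anaphase, was lower at -0.48 (SE 0.11, adjusted p = 0.0214), and at -0.54 (adjusted p = 0.0222) without KO replicate 1. The count of genes called higher went from 2 to 1 without WT replicate 2 or WT replicate 3 and to 6 without KO replicate 2. The count called lower went to 0 without each WT library in turn and to 2 without KO replicate 1.

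Of 21 G1 cyclins, cyclin-dependent kinases (CDKs), their Cdc25 phosphatases, E2F and MYB factors, 4 (19%) were called higher and 1 (4.76%) lower, against 11.6% and 7.27% of all tested genes. The 4 include Cdc25c, which passed the filter through the KO libraries only, so the share called higher is set in part by the filter. Without KO replicate 1, 4 of the 20 genes then tested were called higher, against 9.69% of all genes then tested. Cdk6, the kinase partner of the D cyclins, lay at 32.7, 36.0 and 34.2 CPM in WT and at 95.1, 111 and 92.9 CPM in KO. KO replicate 1 lay between the other KO mice, and the log2 fold change was 1.54 (SE 0.10, adjusted p = 0.000527), and 1.55 (adjusted p = 0.000188) without that library. E2f2, an activating E2F factor, was higher at 0.66 (SE 0.10, adjusted p = 0.0073), and Cdc25b, a phosphatase that activates CDKs, was lower at -0.61 (SE 0.10, adjusted p = 0.00715). With that library left out these were 0.60 (adjusted p = 0.0101) and -0.69 (adjusted p = 0.0039). Named after their values were seen, Ccnd3, cyclin D3, was higher at 0.37 (SE 0.08, adjusted p = 0.0248) and at 0.41 (adjusted p = 0.0191) without KO replicate 1. Cdc25c had 6, 16 and 5 counts in WT and 87, 18 and 18 counts in KO, given as a description because its passing the filter required it to be high in KO. The count called higher was 2 without each WT library in turn and without KO replicate 3.

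Of 26 CDK inhibitors, pocket proteins and quiescence genes, 5 (19.2%) were called higher and 1 (3.85%) lower, against 11.6% and 7.27% of all tested genes. All 5 that were higher were CDK inhibitors, and 2 of them, Cdkn2a and Cdkn2b, passed the filter through the KO libraries only. The share called higher is therefore set in part by the filter. Without KO replicate 1, when these 2 were not tested, 3 of 24 genes were called higher, against 9.69% of all genes then tested. Cdkn1c, which encodes p57, lay at 3.08, 2.21 and 2.82 CPM in WT and at 19.5, 39.0 and 33.9 CPM in KO. KO replicate 1 was the lowest of the KO mice, and the log2 fold change was 3.51 (SE 0.28, adjusted p = 0.000996), and 3.75 (adjusted p = 3.27e-05) without it. Cdkn2a, the locus of p16 and p19Arf, had 3, 4 and 4 counts in WT and 127, 43 and 30 counts in KO, and Cdkn2b, p15, had 0, 5 and 8 counts in WT and 93, 34 and 31 counts in KO. These counts are a description, since a gene that passed the filter in this way had to be higher in KO. Cdkn2c, p18, lay at 11.02, 9.84 and 11.45 CPM in WT and at 30.9, 21.1 and 22.7 CPM in KO. All KO mice were above WT, and the log2 fold change was 1.21 (SE 0.17, adjusted p = 0.00538), and 1.01 (adjusted p = 0.0034) without KO replicate 1. Cdkn2b, Cdkn2d at 0.49 (SE 0.10, adjusted p = 0.0183) and Lin9, a subunit of the complex that binds CHR promoters, at -0.47 (SE 0.13, adjusted p = 0.0487), are named after their values were seen. With KO replicate 1 left out, Cdkn2d was at 0.53 (adjusted p = 0.0148) and Lin9 was no longer called (-0.49, adjusted p = 0.0661). The count called higher was 3 without WT replicate 2, without KO replicate 3, and without KO replicate 1, where Cdkn2a and Cdkn2b were not tested. The count called lower was 0 without WT replicate 2, WT replicate 3 or KO replicate 3 and 2 without WT replicate 1.

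**Figure D5:**
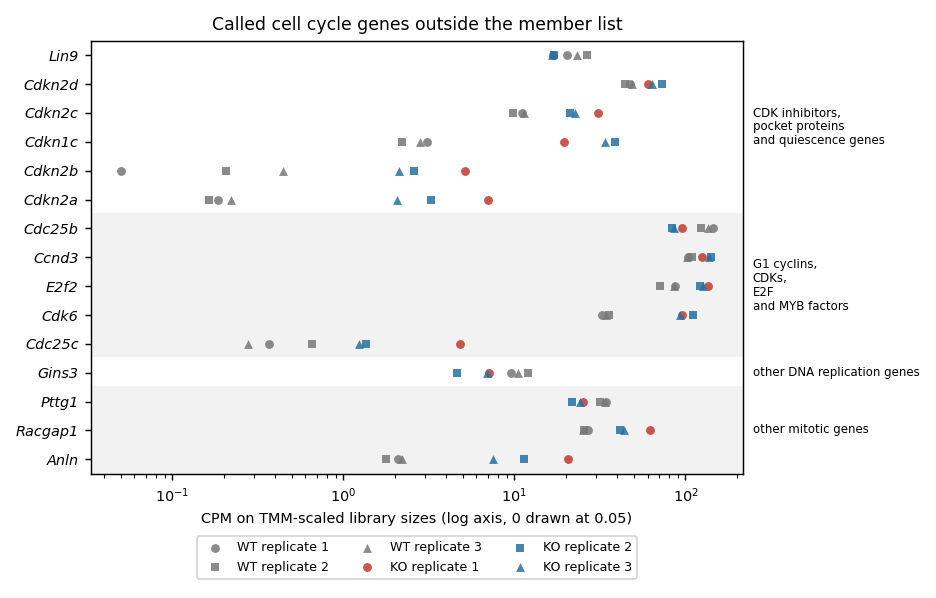
CPM (log axis, 0 drawn at 0.05) of the 15 called genes of the cell cycle lists outside the 41 members, one point per library. The KO points of Cdk6, Cdkn1c and Cdkn2c lie to the right of all WT points, with KO replicate 1 at 95.1, 19.5 and 30.9 CPM.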

How the data were processed

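RNA-seq libraries of sorted splenic Treg cells from 3 WT and 3 KO mice were analysed. The authors mapped single-end reads of 51 bases to mm10 (HISAT) and deposited raw, unstranded counts per gene (featureCounts). The submitters' processing notes name CASAVA, HISAT and edgeR without versions. Samples were grouped by their titles.

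The 11658 genes above 1 CPM in 3 or more libraries entered the QLF test of edgeR 4.0.16 (R 4.3.3) after TMM scaling, at a Benjamini-Hochberg FDR of 0.05. SE and confidence intervals were computed from the fitted counts, dispersions and moderated variances of the fit. They are separate from the F test that gave the adjusted p. DESeq2 1.42.0 and other scalings, filters and tests were alternatives, and each library was left out in turn. The steps were tested on simulated counts. Positions, exon lengths and 3′ UTRs came from GENCODE vM21 (GRCm38), and promoters and miRNAs from RefSeq. Member windows of the promoter table that reach into the GENCODE gene were not printed.

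All 41 members were named by role, with values per library for those called and for 9 genes fixed by name (7 more were added after their values were seen), and the 3 genes with the smallest p of each other list. The members and the lists were chosen with earlier results of these data known. The replicate numbers were not treated as pairs in the main fit. The tests rest on the spread between 3 mice a group.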

Additional observations from a re-analysis of the deposited data

How the results depend on the processing

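The number of members called higher was 2 in the QLF test with TMM. It was 1 with RLE size factors, with library size only, with robust estimation and with filterByExpr, 0 without a filter and at an FDR of 0.01, 7 with DESeq2, and 5 with the likelihood ratio or exact test. The number called lower, 1, became 0 at an FDR of 0.01. Ccne1 without a filter was at adjusted p = 0.0501. Prc1 was at 0.0514 with RLE size factors and with filterByExpr, and at 0.0529 with robust estimation. With library size only Prc1 was at 0.0601, and without a filter at 0.0688. With library size only, all tested genes split into 1064 higher and 1201 lower, against 1350 and 847, and their median log2 fold change was -0.0614. Cdc6 turned from 0.01 to -0.0024 (RLE), -0.067 (library size only), -0.0044 (DESeq2) and -0.024 (no filter). Sites of 8 bases alone left 2 of 15 members with a miR-142 site.

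Of the other lists, DNA replication genes called lower were 3 with library size only and with DESeq2 (1 higher) and 0 without a filter and at an FDR of 0.01. Mitotic genes called higher were 4 with DESeq2 and 1 at an FDR of 0.01 (0 lower). At that FDR, 2 G1 genes were higher, 3 CDK inhibitor list genes were higher and 0 lower, and 490 and 196 of all tested genes were higher and lower. CDK inhibitor list genes called lower were 2 with library size only, 3 with DESeq2, and 0 without a filter and with the 3 edgeR tests together. The replication stress list had 1 lower with library size only. The cause of these changes was not tested.

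Same-numbered libraries did not deviate together (r = 0.073, -0.012 and -0.188), and not every library correlated best with its own number. The numbers were therefore not treated as pairs, although 3 libraries per group are too few to exclude a pairing. A fit with the replicate block called 1 member higher and 0 lower, 0 lower in the DNA replication, mitotic and CDK inhibitor lists, and 545 of all tested genes lower. In this QLF fit Prc1 kept its call (adjusted p = 0.0409), while Ccne1 (0.0549) and Mcm4 (0.0586) lost theirs. In it, Cdc6 was at -0.14 and Ccne2 at 0.052.

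Leaving out 1 library at a time gave 0 to 4 members higher and 0 to 2 lower, 483 to 1403 of all tested genes higher and 208 to 937 lower, 0 to 2 DNA replication genes higher and 0 to 4 lower, 1 to 6 mitotic genes higher and 0 to 2 lower, 2 to 4 G1 genes higher, 3 to 5 CDK inhibitor list genes higher and 0 to 2 lower, and 0 to 1 replication stress genes higher. Log2 fold changes that changed sign ranged from -0.40 to 0.50 (Ccne2), -0.63 to 0.27 (Cdc6), -0.39 to 0.80 (Cenpe), -0.37 to 0.59 (E2f1), -0.56 to 0.62 (Kif23), -0.19 to 0.067 (Mcm3), -0.47 to 0.078 (Mcm5), -0.13 to 0.10 (Mcm6), -0.071 to 0.034 (Mcm7), -0.21 to 0.54 (Melk), -0.0045 to 1.37 (Nusap1), -0.017 to 0.51 (Rrm1), -0.39 to 0.79 (Rrm2) and -0.40 to 0.20 (Tyms). No member called in all 6 libraries changed sign. Depth limits Ccnb1 most, with 12 to 22 counts per WT library.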
